A study of Mus musculus with 9 samples.

Results

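The genes of MHC class I presentation described here are 10 mouse genes, all of which were among the 13223 genes listed in the deposited table. They were chosen by name for their role in the pathway, with no threshold on a measured value, although earlier results of these data were known. They encode the heavy chains H2-K1, H2-D1 and H2-T23, the light chain B2m, the peptide transporter subunits Tap1 and Tap2, the loading factor Tapbp, the inducible proteasome subunits Psmb8 and Psmb9, and the transcriptional regulator Nlrc5. The genes were measured in tuft cells, rare chemosensory epithelial cells that in the thymus lie in the medulla. Tuft cells had been sorted from the thymi of young female WT mice, either left untreated (5 libraries) or given sublethal irradiation of 425 rad and killed after 3 days (4 libraries). The untreated mice were age-matched. No transgene, deletion or other agent is given for either group. Each library was made by bulk MARS-seq, which sequences the 3′ ends of polyadenylated RNA from a pool of cells. The comparison asked how far sublethal irradiation changed these transcripts in the sorted cells.

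MHC class I molecules display peptides from proteins made inside a cell to CD8 T cells. The proteasome cuts the proteins, the TAP transporter carries the peptides into the endoplasmic reticulum, and tapasin holds an empty heavy chain with B2m beside the transporter until a peptide binds. Interferon exchanges the constitutive catalytic subunits of the proteasome for inducible ones, and NLRC5 raises transcription of most of these genes together. In the thymus, epithelial cells show self peptides on class I molecules to developing CD8 T cells.

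The promoters of H2-D1, B2m and Tap1 are shown because they carry different sets of the sequence motifs known from class I promoters, and because the Tap1 window also holds the start of Psmb9, whose values differed from those of Tap1. The sequences are from RefSeq on build GRCm38.p6, run 5′ to 3′ on the transcribed strand, and cover 250 bases before to 50 bases after an annotated start. H2-D1 is at chr17:35262844-35263143 on the plus strand, B2m at chr2:122147437-122147736 on the plus strand, and Tap1 at chr17:34187306-34187605 on the plus strand. Capitals mark matches to an interferon element (GAAANNGAAA, either strand), a CCAAT box (CCAAT, either strand), the NF-kB consensus (either strand) and a TATA box (TATAA, transcribed strand).
H2-D1: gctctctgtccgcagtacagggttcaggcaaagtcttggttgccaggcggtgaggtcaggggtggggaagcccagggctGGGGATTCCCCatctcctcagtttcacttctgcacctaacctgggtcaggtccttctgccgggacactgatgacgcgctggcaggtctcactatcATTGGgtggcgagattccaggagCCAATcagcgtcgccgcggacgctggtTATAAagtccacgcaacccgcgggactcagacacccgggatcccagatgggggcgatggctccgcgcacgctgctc
B2m: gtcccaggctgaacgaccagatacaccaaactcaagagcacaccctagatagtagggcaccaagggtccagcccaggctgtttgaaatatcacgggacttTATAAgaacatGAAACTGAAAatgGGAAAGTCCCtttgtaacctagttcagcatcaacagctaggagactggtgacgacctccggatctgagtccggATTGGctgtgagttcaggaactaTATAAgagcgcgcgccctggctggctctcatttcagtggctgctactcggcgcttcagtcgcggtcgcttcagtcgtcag
Tap1: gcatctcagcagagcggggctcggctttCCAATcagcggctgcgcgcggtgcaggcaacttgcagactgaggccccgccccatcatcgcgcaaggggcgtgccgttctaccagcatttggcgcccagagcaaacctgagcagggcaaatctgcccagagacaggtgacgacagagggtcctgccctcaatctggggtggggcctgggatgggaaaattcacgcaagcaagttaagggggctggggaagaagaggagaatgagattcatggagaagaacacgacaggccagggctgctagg
The H2-D1 window held overlapping NF-kB matches from base -171, CCAAT boxes on opposite strands at -76 and -53, and a TATA box at -26. The B2m window held TATA boxes at -150 and -30, an interferon element at -139, an NF-kB match at -126 and a CCAAT box at -53. The Tap1 window held a CCAAT box at -222 and none of the other motifs. RefSeq windows were given for 8 of the 10 genes, those of Tap2 and Nlrc5 being the exceptions. Among these 8 genes the interferon element was found in 2 (H2-T23 and B2m), the CCAAT box in 7, the NF-kB consensus in 3 (H2-K1, H2-D1 and B2m) and the TATA box in 4. Among all 32851 windows of the same length, 3.44% held the interferon element, 37.4% the CCAAT box, 8.46% the NF-kB consensus and 17.5% the TATA box. Psmb9 is transcribed on the minus strand from a start 226 bases away from that of Tap1, and the windows of these divergent genes share 275 bases. A match describes these letters and does not show that a factor binds there. Only the stated letters were searched, so variants of a motif were missed and a window without a match may still hold one.

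Library totals ran from 509157 to 978442 counts, so that 1 count was worth 1.04 to 2.1 CPM (each library set to the same total, after TMM scaling). The labels do not tie each library to its own mouse, so the spread between libraries may in part be technical. All 15 tuft cell markers examined, among them Trpm5, Avil and Pou2f3, were detected in every library. Irradiated replicate 4 stood apart from the rest on the first principal component of all tested genes, at 75.1 against -31.8 to 6.1 for the other 8 libraries, and this component held 35% of the variance. Untreated replicate 2 had the lowest summed tuft marker level, 8049 CPM against 10703 to 17939 CPM in the other untreated libraries. The values of the 10 genes are therefore given for each library.

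None of the 10 genes passed the test after irradiation. In edgeR's quasi-likelihood test with Benjamini-Hochberg adjustment over all 8934 tested genes, 0 of the 10 were higher and 0 were lower, and the lowest adjusted p among them was 0.386. Of all tested genes, 1.22% were called higher and 0.123% lower at an adjusted p under 0.05. DESeq2 and limma-voom also called none of the 10. At an unadjusted p under 0.05, 2 of the 10 were lower (Psmb8 and Psmb9) and 0 were higher, against 4.52% of all tested genes that were lower at that threshold. The groups did not overlap for the same 2 genes, with irradiated lower, against 2.08% of all tested genes. Log2 fold changes of irradiated over untreated were above 0 for 5 genes and below 0 for 5, with a median of -0.04 beside -0.02 for all tested genes. In pooled cells, fewer cells of a type and less RNA per cell cannot be told apart.

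**Figure D1:**
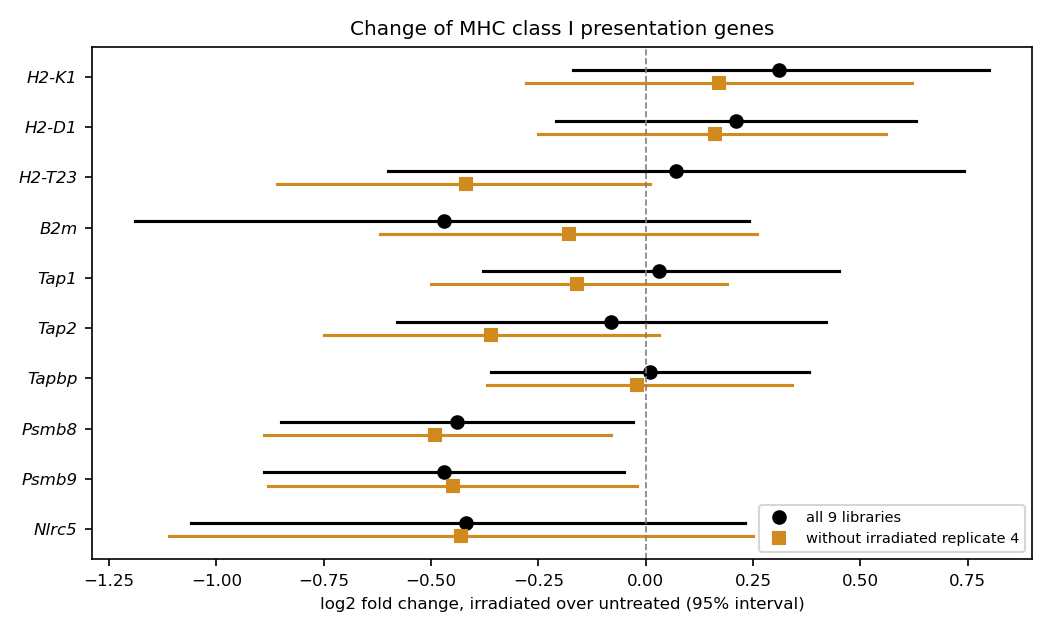
Log2 fold change of irradiated over untreated for each of the 10 genes with its 95% interval from edgeR, with all 9 libraries (circles) and without irradiated replicate 4 (squares). With all 9 libraries, the intervals of Psmb8 and Psmb9 lie just below 0 and the other 8 include 0.

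The classical heavy chains H2-K1 and H2-D1, which present peptides to CD8 T cells, had slightly higher means after irradiation, within the spread between libraries. H2-K1 (mm10, chr17:33996017-34000347, minus strand) measured 3107, 5538, 3621, 3972 and 4101 CPM in untreated replicates 1 to 5 and 5048, 4317, 4325 and 6513 CPM in irradiated replicates 1 to 4. Apart from untreated replicate 2, every untreated library lay below every irradiated one. The mean was 4068 ± 908 CPM (SD, n = 5) in untreated and 5051 ± 1033 CPM (SD, n = 4) in irradiated libraries. The log2 fold change was 0.31 ± 0.23 (SE), with an adjusted p of 0.704 in edgeR. It was 0.17 ± 0.21 with an adjusted p of 0.852 without irradiated replicate 4, its highest library, and 0.44 ± 0.22 with an adjusted p of 0.584 without untreated replicate 2. H2-D1 (chr17:35262730-35267499, plus strand) measured 4192, 5439, 4865, 5302 and 5964 CPM in untreated and 5869, 6034, 5295 and 6654 CPM in irradiated libraries, so the groups overlapped. Its log2 fold change was 0.21 ± 0.20, with an adjusted p of 0.787 in edgeR, and it was 0.16 ± 0.19 without irradiated replicate 4 and 0.22 ± 0.21 without untreated replicate 2. The 95% intervals reached from a fold of 0.886 to 1.74 for H2-K1 and from 0.863 to 1.55 for H2-D1, so that the data do not separate a small fall from a rise of about that upper size.

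H2-T23 (chr17:36029773-36032855, minus strand) encodes the nonclassical heavy chain Qa-1, which presents signal peptides of other class I molecules to CD94/NKG2 receptors. It measured 374, 736, 538, 480.0 and 566 CPM in untreated and 434, 381, 386 and 1071 CPM in irradiated libraries. Irradiated replicate 4 was the highest of all 9, and the other 3 irradiated libraries lay at the lower end of the untreated range. Its log2 fold change was 0.07 ± 0.31 with an adjusted p of 0.957 in edgeR, and it turned to -0.42 ± 0.20 with an adjusted p of 0.472 without irradiated replicate 4. Heavy chain genes resemble one another, and the authors' handling of reads that match several genes is not given in the sources used here. Of the 50-base words in the last 500 bases of the longest coding transcript, 38.1% of those of H2-T23, 9.53% of those of H2-D1 and 0.443% of those of H2-K1 also occurred in another gene's transcripts, and none did for the other 7 genes.

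B2m (chr2:122147686-122153083, plus strand) encodes beta-2-microglobulin, the light chain that every class I heavy chain needs to reach the cell surface. It measured 7285, 10553, 7461, 7005 and 7352 CPM in untreated and 7395, 6962, 6602 and 1879 CPM in irradiated libraries. Of the untreated libraries 4 and of the irradiated libraries 3 lay within 6602 to 7461 CPM, while untreated replicate 2 was far above and irradiated replicate 4 far below. The counts behind the irradiated values were 4739, 6716, 5896 and 893, so the low value did not rest on few counts. In edgeR the log2 fold change was -0.47 ± 0.33 with an adjusted p of 0.689. Without irradiated replicate 4 it was -0.18 ± 0.20 with an adjusted p of 0.833, and without that library and untreated replicate 2 it was -0.06 ± 0.19 with an adjusted p of 0.953.

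**Figure D2:**
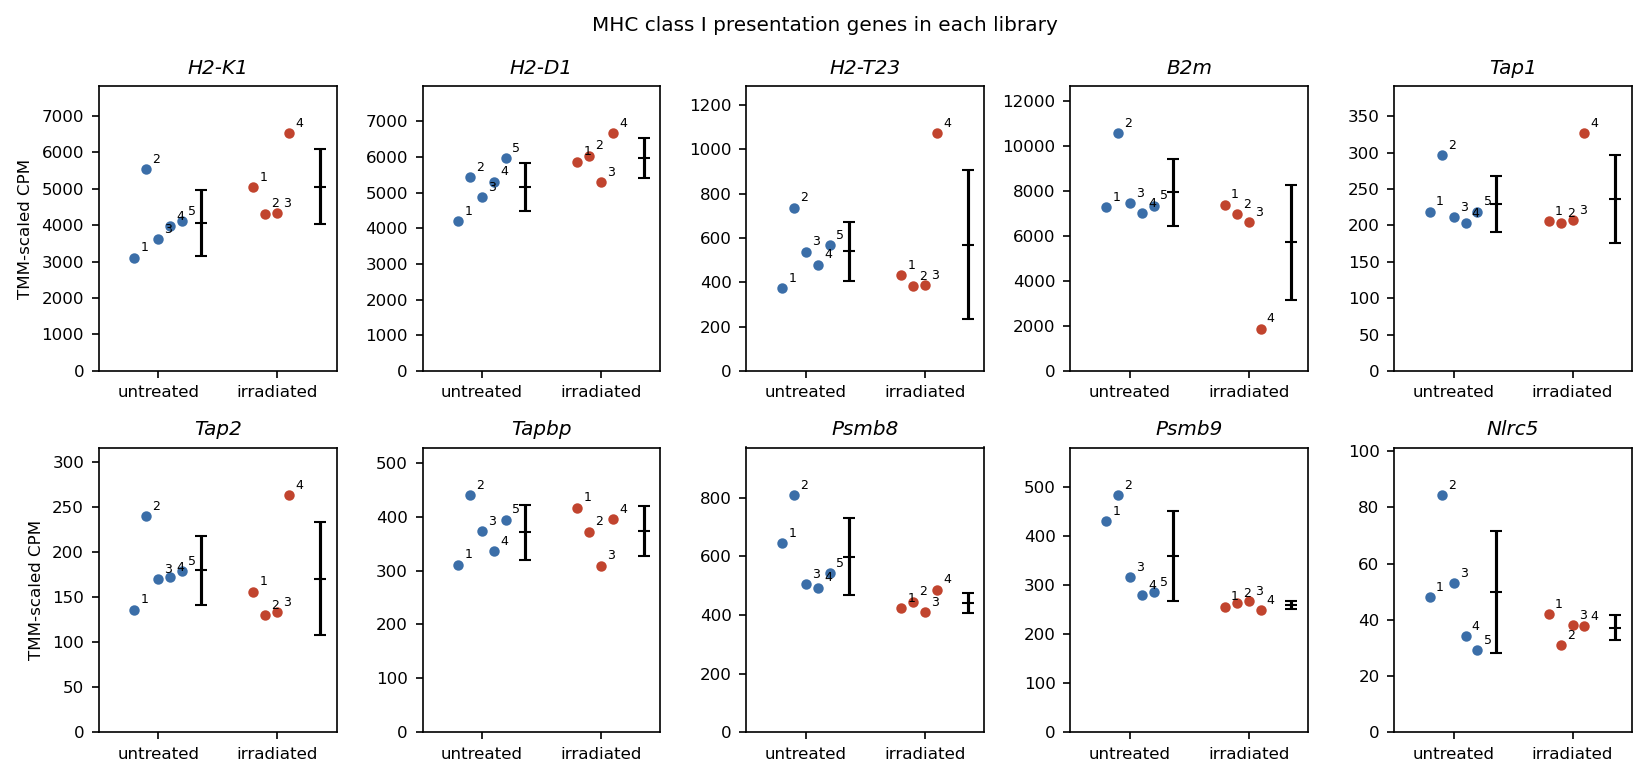
TMM-scaled CPM of each of the 10 genes in the 5 untreated (blue) and 4 irradiated (red) libraries, numbered by replicate, with the mean and SD of each group beside the points and every axis starting at 0. B2m is at 1879 CPM in irradiated replicate 4 and H2-T23 at 1071 CPM, while Psmb8 and Psmb9 are lower in every irradiated library than in any untreated one.

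B2m was the one gene of the 10 that fell so far below the other irradiated libraries in replicate 4, where it was 3.71-fold lower than their mean, while the heavy chains were higher. The ratio of B2m to H2-K1 counts was 2.34, 1.91, 2.06, 1.76 and 1.79 in untreated libraries and 1.46, 1.61, 1.53 and 0.289 in irradiated libraries. The ratio of B2m to H2-D1 counts was 1.74, 1.94, 1.53, 1.32 and 1.23 in untreated and 1.26, 1.15, 1.25 and 0.282 in irradiated libraries. The B2m to H2-K1 ratio was lower in every irradiated library than in any untreated one, and the B2m to H2-D1 ratio was not. Both ratios were looked at after the values were seen, and neither was tested.

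Irradiated replicate 4 also differed from the other 3 irradiated libraries along the GC content of transcripts. GC content could be given for 8708 of the 8934 tested genes (97.5%), from their longest protein-coding transcript. With the genes split into 5 equal groups by GC content, from the lowest (34.3% to 45.5%) to the highest (56.7% to 72.8%), the median log2 difference of replicate 4 from the mean of replicates 1 to 3 was -0.68, -0.27, 0.02, 0.22 and 0.35. B2m, with 41.2% GC, was in the lowest group and differed by -1.89, and 13.3% of the genes in that group differed by as much or more in that direction. The other 9 genes were in the upper 3 groups, where H2-T23 differed by 1.42, Tap2 by 0.91, Tap1 by 0.66 and H2-K1 by 0.52. The part of GC content in the values of these genes was not tested.

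**Figure D3:**
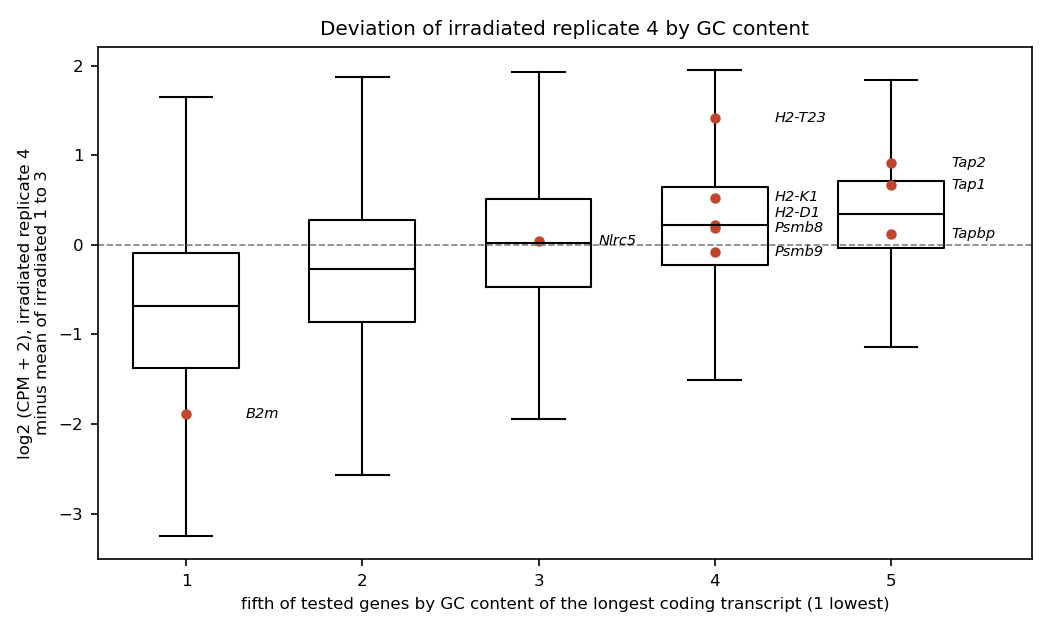
Difference of irradiated replicate 4 from the mean of irradiated replicates 1 to 3, as log2 of CPM plus 2, for tested genes in 5 equal groups by GC content, where boxes give the quartiles and median, whiskers the values within 1.5 interquartile ranges of the box, and red points the 10 class I genes. The median rises from -0.68 to 0.35 with GC content, and B2m is at -1.89 in the lowest group.

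The genes of peptide transport and loading differed little between groups. Tap1 (chr17:34187553-34197225, plus strand) encodes a subunit of the TAP transporter and measured 219, 296, 211, 203 and 219 CPM in untreated and 206, 203, 207 and 326 CPM in irradiated libraries. All libraries but untreated replicate 2 and irradiated replicate 4 lay within 203 to 219 CPM. The log2 fold change was 0.03 ± 0.20 with an adjusted p of 0.971 in edgeR, and its 95% interval reached from a fold of 0.766 to 1.37. Tap2 (chr17:34203527-34216321, plus strand), the other subunit, measured 136, 240.0, 170.2, 172 and 178 CPM in untreated and 156, 129.6, 133 and 263 CPM in irradiated libraries. It was high in the same 2 libraries as Tap1, and its log2 fold change was -0.08 ± 0.23 with an adjusted p of 0.935 in edgeR. Without irradiated replicate 4 the Tap2 value was -0.36 ± 0.18 with an adjusted p of 0.521, and that of Tap1 was -0.16 ± 0.16 with an adjusted p of 0.803. Tapbp (chr17:33915899-33929292, plus strand), which encodes tapasin, measured 311, 440.0, 372, 335 and 395 CPM in untreated and 417, 372, 309 and 396 CPM in irradiated libraries. The Tapbp groups covered nearly the same range, with a log2 fold change of 0.01 ± 0.17, a 95% interval of -0.36 to 0.38 and an adjusted p of 0.988 in edgeR. It was -0.02 ± 0.17 without irradiated replicate 4 and 0.07 ± 0.18 without untreated replicate 2.

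The inducible proteasome subunits were the genes with the lowest p among the 10. Psmb8 (chr17:34197721-34201454, plus strand) encodes the chymotrypsin-like subunit of the immunoproteasome and measured 646, 809, 504, 493 and 542 CPM in untreated and 424, 446, 409.8 and 486 CPM in irradiated libraries. The highest irradiated library lay just below the lowest untreated one. Its mean was 599 ± 132 CPM (SD, n = 5) in untreated and 442 ± 33.2 CPM (SD, n = 4) in irradiated libraries. The log2 fold change was -0.44 ± 0.19, with an unadjusted p of 0.0375 and an adjusted p of 0.411 in edgeR, which did not pass. Psmb9 (chr17:34181987-34187764, minus strand) encodes the subunit that takes the place of the caspase-like Psmb6 and measured 430.3, 483, 316, 279 and 286 CPM in untreated and 256, 263, 267 and 248 CPM in irradiated libraries. All 4 irradiated libraries lay close together and below every untreated one, and untreated replicates 1 and 2 were well above the other 3. Its mean was 359 ± 92.4 CPM (SD, n = 5) in untreated and 259 ± 8.12 CPM (SD, n = 4) in irradiated libraries. The log2 fold change was -0.47 ± 0.20, with an unadjusted p of 0.0311 and an adjusted p of 0.386 in edgeR. In the authors' deposited table, which gives untreated over irradiated, Psmb8 had a log2 fold change of 0.42 with an adjusted p of 0.311 and Psmb9 0.45 with an adjusted p of 0.35, and none of the 10 genes passed there.

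Untreated replicates 1 and 2, where Psmb8 and Psmb9 were highest, also held the highest summed levels of macrophage and dendritic cell markers, thymocyte markers and class II genes. The 10 listed markers of macrophages and dendritic cells summed to 2387 and 1216 CPM in these libraries, against 269 to 748 CPM in the other untreated libraries and 174 to 909 CPM in the irradiated ones. Of the 8 tested, 2 (Ccr7 and Ccl22) were called lower, beside 0.123% of all tested genes. The 11 listed thymocyte markers summed to 961 and 255 CPM in untreated replicates 1 and 2, against 82.2 to 137 CPM in the other untreated libraries and 25.9 to 50.4 CPM in the irradiated ones, where Ptcra was at 0 in every library. The 10 genes of MHC class II presentation, expressed by dendritic cells, B cells and thymic epithelium, summed to 9323 and 20502 CPM there, against 3844 to 4490.1 CPM in the other untreated libraries and 2185 to 2893 CPM in the irradiated ones. Without untreated replicate 2 alone, the log2 fold change was -0.31 ± 0.18 for Psmb8 and -0.35 ± 0.18 for Psmb9, with adjusted p of 0.655 and 0.623 in edgeR. Without untreated replicates 1 and 2, that of Psmb8 was -0.22 ± 0.17 with an adjusted p of 0.824 in edgeR, and that of Psmb9 was -0.18 ± 0.16 with an adjusted p of 0.868. The remaining untreated libraries were still above every irradiated one for both genes, at 493 to 542 CPM for Psmb8 and 279 to 316 CPM for Psmb9. The part of other cell types in these differences was not tested.

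Each inducible subunit takes the place of a constitutive one, and their ratio within a library does not depend on how libraries are scaled. These ratios were chosen with earlier results of these data known. The constitutive counterparts did not pass the test, with a log2 fold change of 0.09 ± 0.18 and an adjusted p of 0.915 in edgeR for Psmb5, and 0.03 ± 0.17 with an adjusted p of 0.971 for Psmb6. The ratio of Psmb8 to Psmb5 counts was 5.99, 6.66, 5.93, 4.41 and 5.33 in untreated and 3.28, 4.13, 4.36 and 4.12 in irradiated libraries. Every irradiated value lay below every untreated one, and the mean log2 ratio went from 2.48 ± 0.22 (SD, n = 5) to 1.98 ± 0.18 (SD, n = 4). This difference of -0.51 had a p of 0.0159 in a two-sided exact permutation test, which compares all ways of dividing the libraries into groups of these sizes, or 0.0476 adjusted over the 3 ratios tested, where the smallest p such a test can give is 0.00794. The ratio of Psmb9 to Psmb6 was 1.08, 1.02, 0.952, 0.803 and 0.73 in untreated and 0.669, 0.763, 0.598 and 0.602 in irradiated libraries, so that untreated replicate 5 lay below irradiated replicate 2. The log2 ratio went from -0.14 ± 0.24 to -0.61 ± 0.16, a difference of -0.47 with a p of 0.0317 in the exact permutation test, or 0.0476 adjusted over the 3 ratios. The direction of both held when any 1 library was left out, but neither passed in 8 of these 9 cases, with adjusted p of 0.0536 to 0.0857 in the exact test. Both passed only without untreated replicate 5, with an adjusted p of 0.0429. Untreated replicates 1 and 2 had the highest values of both ratios, and the ratios were not repeated without these libraries together. The part of other cell types in the ratios was not tested.

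The third inducible subunit, Psmb10, which takes the place of Psmb7, had a ratio that did not pass the test. The ratio of Psmb10 to Psmb7 counts was 2.21, 3.13, 2.94, 3.38 and 3.54 in untreated and 3.15, 2.62, 2.63 and 8.7 in irradiated libraries. Replicate 4 alone was far above the rest, where Psmb7 was at 23 counts against 78 to 124 in the other irradiated libraries. The log2 difference of 0.30 had a p of 0.627 in the exact permutation test, also after adjustment, and it was -0.10 without irradiated replicate 4. The difference between the 3 ratios was not tested.

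**Figure D4:**
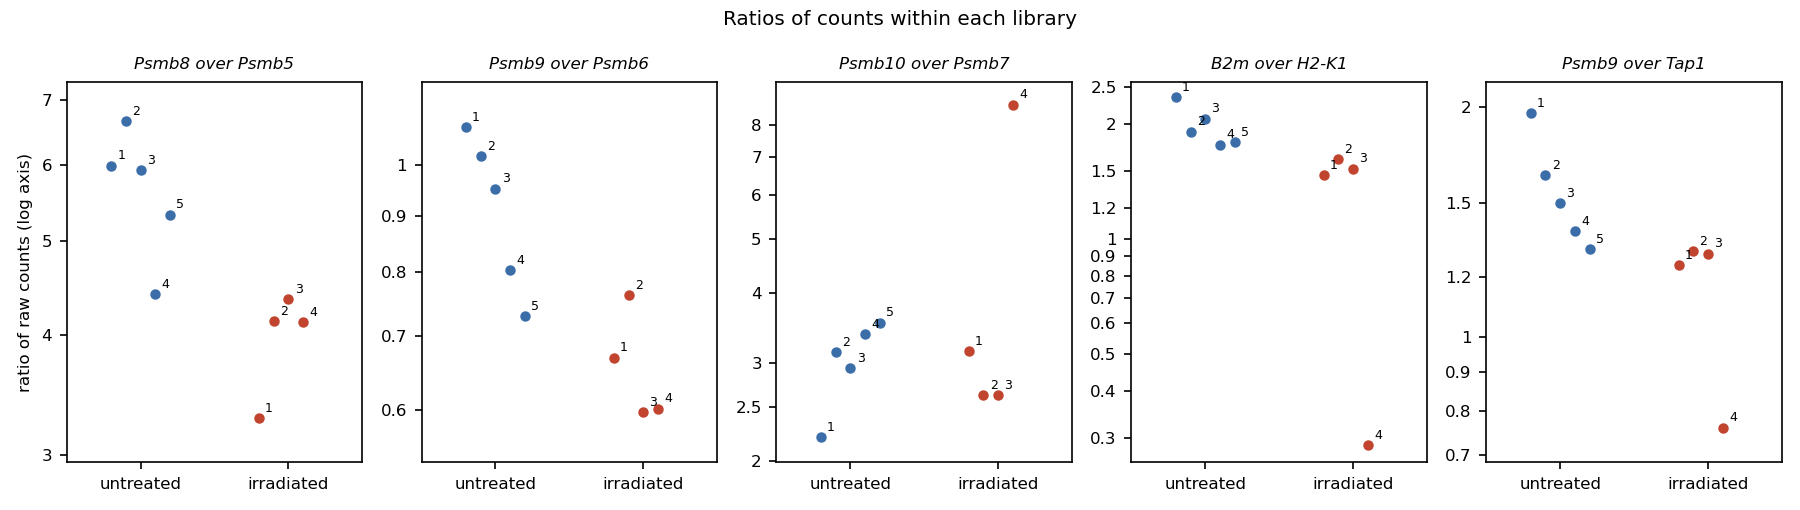
Ratio of raw counts of gene pairs within each library, on a log axis, for 5 untreated (blue) and 4 irradiated (red) libraries numbered by replicate. The Psmb8 to Psmb5 ratio is lower in all irradiated libraries than in any untreated one, and irradiated replicate 4 is apart in the Psmb10 to Psmb7, B2m to H2-K1 and Psmb9 to Tap1 ratios.

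Psmb9 and Tap1, which share the promoter window printed above, had different values across libraries. The ratio of Psmb9 to Tap1 counts was 1.97, 1.63, 1.5, 1.38 and 1.31 in untreated and 1.24, 1.3, 1.29 and 0.761 in irradiated libraries. Every irradiated value was below every untreated one, although the lowest untreated value and the highest irradiated value nearly met, and the ratio was chosen after the values were seen and was not tested. In the annotation the exons of the genes overlap on opposite strands at their 5′ ends, away from the 3′ ends that the method reads. Tap2 and Psmb8 overlap exons of the opposite-strand gene Gm20496, Tap2 also those of Gm15821, Tapbp those of Gm19412 and Nlrc5 those of 9330175E14Rik, while Zbtb22 overlaps Tapbp on the same strand. Whether counting used strand is not given in the sources used here, and without strand the reads of these partners cannot be told apart.

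Nlrc5 (chr8:94434356-94527272, plus strand), the regulator of class I transcription, was measured with few counts. It had 46, 57, 43, 26 and 21 counts in untreated libraries, or 48.2, 84.4, 53.0, 34.2 and 29.3 CPM. The irradiated libraries had 27, 30, 34 and 18 counts, or 42.1, 31.1, 38.1 and 37.9 CPM, which fell inside the untreated range. The log2 fold change was -0.42 ± 0.30 with a 95% interval of -1.06 to 0.23 and an adjusted p of 0.701 in edgeR. It was -0.16 ± 0.26 with an adjusted p of 0.909 without untreated replicate 2 and -0.07 ± 0.29 without untreated replicates 1 and 2.

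The highest value of each of the 10 genes was in 1 of the 2 libraries that stood apart. Untreated replicate 2 was the highest untreated library for 9 of the 10 genes, with H2-D1 the exception, and the highest of all libraries for 5 (B2m, Tapbp, Psmb8, Psmb9 and Nlrc5). Irradiated replicate 4 was the highest of all for the other 5 (H2-K1, H2-D1, H2-T23, Tap1 and Tap2), and the lowest irradiated library for B2m and Psmb9. How many of all tested genes were highest in these 2 libraries was not counted, so these counts do not set the 10 genes apart from other genes. The mean of the standardised log2 CPM of the 10 genes was 1.34 in untreated replicate 2 and 0.55 in irradiated replicate 4, and between -0.60 and 0.01 in the other 7 libraries. Markers of Aire-expressing medullary epithelium, 4 of 5 listed in the table, summed to 597 CPM in untreated replicate 2 against 76.5 to 112 CPM in the other untreated and 62.4 to 76.7 CPM in the irradiated libraries. The 5 markers of cortical epithelium summed to 760.0 CPM there against 131 to 198 CPM in the other untreated and 33.7 to 129.6 CPM in the irradiated libraries. In untreated replicate 2 this sum came mostly from Ccl25, at 483 CPM, and Prss16, at 222 CPM. The 7 fibroblast markers summed to 329 CPM in untreated replicate 2, up to 2024 CPM in the other untreated and 2459 to 3940 CPM in the irradiated libraries. The 5 mesothelium markers summed to 335 to 762 CPM in untreated and 795 to 1568 CPM in irradiated libraries. Much of these sums was Msln, at 278 to 735 CPM and 402 to 836 CPM. It did not pass, with an adjusted p of 0.577 in edgeR. Of the 4 markers tested, the other 3 (Upk3b, Lrrn4 and Gpm6a) were called higher, beside 1.22% of all tested genes. The 7 endothelium markers summed to 551 to 1269 CPM in untreated libraries and 519.6 to 1627 CPM in irradiated ones, highest in irradiated replicate 4. The 5 B cell markers summed to 127 to 275 CPM and 114 to 211 CPM, mostly from Cd79b, at 158 ± 28.3 CPM (SD, n = 5) and 158 ± 44.9 CPM (SD, n = 4). Cd79a and Ms4a1 were at 0 in every irradiated library and in some untreated ones. The part of these cells in the levels of the class I genes was not tested.

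Other genes of the class I pathway were read from lists, and in none of the first 6 did a gene pass the test in either direction. Of 26 other class I heavy chain genes 15 were in the table and 10 were tested, with a median log2 fold change of -0.25 beside -0.02 for all tested genes. H2-T22 measured 25 to 34.5 CPM in untreated and 14.7 to 20.7 CPM in irradiated libraries, with a log2 fold change of -0.67 ± 0.26 and an adjusted p of 0.348 in edgeR. H2-Q5 lay the other way, at 7.4 to 17.8 CPM and 23.4 to 33.7 CPM, with 0.95 ± 0.31 and an adjusted p of 0.212. The groups did not overlap for H2-T22 or H2-Q5, and both were measured with few counts. Both were also named for being among the 4 of lowest p in their list. Of all tested genes, 2.08% had groups apart with irradiated lower, and the share with irradiated higher was not counted. H2-M2 had a log2 fold change of -1.69 ± 0.50 with an adjusted p of 0.192 in edgeR, with its highest value, 271 CPM, in untreated replicate 2, and H2-Q2 had -0.52 ± 0.35 with an adjusted p of 0.674.

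Of the 13 genes of peptide loading and trimming 12 were tested, with a median of -0.01. Calr, the chaperone of the loading complex, measured 813 to 955 CPM in untreated and 1090.0 to 1265 CPM in irradiated libraries, with a log2 fold change of 0.44 ± 0.16 and an adjusted p of 0.31 in edgeR. Tapbpl, a peptide editor related to tapasin, measured 54.4 to 97.8 CPM and 41.5 to 50.5 CPM, with -0.57 ± 0.22 and an adjusted p of 0.333. Neither pair of groups overlapped, and both genes were also named for being among the 4 of lowest p in their list. The aminopeptidases Lap3 and Erap1 had log2 fold changes of -0.55 ± 0.28 and -0.67 ± 0.36, with adjusted p of 0.529 and 0.562 in edgeR.

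The inducible proteasome parts and counterparts outside the 10 genes, 9 of 10 tested, had a median of -0.22, and the 11 other subunits of the 20S proteasome one of -0.24, with 10 of the 11 below 0. Psme1, a subunit of the interferon-induced proteasome activator, measured 497 to 698 CPM in untreated and 458 to 490.0 CPM in irradiated libraries, with a log2 fold change of -0.35 ± 0.17 and an adjusted p of 0.506 in edgeR. Pomp, the assembly chaperone, had -0.23 ± 0.18, Psmb10 had -0.22 ± 0.18 and Psmb7 had -0.42 ± 0.26, with adjusted p of 0.638 or more in edgeR. Among the other 20S subunits, Psma4 had -0.59 ± 0.30, Psma2 -0.53 ± 0.32, Psma6 -0.44 ± 0.33 and Psma1 -0.37 ± 0.22, with adjusted p of 0.524 to 0.714 in edgeR. Without untreated replicate 2 and irradiated replicate 4 the medians of these lists were -0.11 and -0.06.

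Of the factors that bind class I promoters, 11 of 12 were in the table and 8 were tested, with a median of 0.15 and 7 above 0. This median was -0.04 over 10 tested genes without irradiated replicate 4, and 0 over 10 without both libraries that stood apart. Irf1, an interferon-induced activator, measured 255 to 363 CPM in untreated and 393 to 529 CPM in irradiated libraries, and its groups did not overlap. Its log2 fold change was 0.63 ± 0.18 with an adjusted p of 0.146 in edgeR. The NF-kB subunit Rela did not overlap either, at 146 to 197 CPM and 225 to 253 CPM, with 0.47 ± 0.16 and an adjusted p of 0.238. Irf1 and Rela were also named for being among the 4 of lowest p in their list. The CCAAT-binding subunits Nfya and Nfyc had 0.31 ± 0.34 and -0.21 ± 0.24, with adjusted p of 0.827 and 0.831 in edgeR. Nfya was highest in irradiated replicate 4, at 50.5 CPM against 18.7 to 23.5 CPM in irradiated replicates 1 to 3. Of the 15 interferon receptor and signalling genes 13 were in the table, without Ifng and Ifnb1, and 12 were tested, with a median of -0.15. Stat2 had -0.45 ± 0.19 with an adjusted p of 0.385, and the inhibitors Socs1 and Socs3 had 0.43 ± 0.26 and 1.25 ± 0.45, with adjusted p of 0.632 and 0.322 in edgeR. Both inhibitors were highest in irradiated replicate 4. Socs3 was at 1042 CPM there, against 245 to 304 CPM in irradiated replicates 1 to 3 and 111 to 272 CPM in untreated libraries. Socs1 was at 162 CPM there, against 78 to 81.7 CPM and 51.8 to 99 CPM.

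Of 40 interferon-stimulated genes outside class I presentation 33 were tested, of which 0 rose, 2 fell and 31 did not pass. Their median was -0.53, beside -0.02 for all tested genes, and 29 were below 0. Over all tested genes, 1.22% were called higher and 0.123% lower. Epsti1 fell, with a range of 46.9 to 133 CPM in untreated and 28.0 to 37.9 CPM in irradiated libraries, a log2 fold change of -1.45 ± 0.31 and an adjusted p of 0.0385 in edgeR. Gbp4, which encodes a guanylate-binding protein, fell from a range of 25.1 to 56.7 CPM to one of 10.5 to 20.3 CPM, with -1.35 ± 0.31 and an adjusted p of 0.0497. Rtp4 and Trim30a had -0.74 ± 0.20 and -1.21 ± 0.37, with adjusted p of 0.123 and 0.174. The count of 2 was 0 without irradiated replicate 4, 0 without untreated replicate 2 and 1 without both, with medians of -0.44, -0.45 and -0.37. Among 8 tested genes of class II presentation none passed, with a median of -1.53 and all 8 below 0. Without untreated replicate 2 the median was -0.98 and 2 were lower, where 12 of all tested genes were called lower in that fit. H2-Aa, H2-Ab1, H2-Eb1 and H2-DMa had log2 fold changes of -2.07 ± 0.53, -1.84 ± 0.51, -1.53 ± 0.48 and -1.08 ± 0.35, with adjusted p of 0.123 to 0.219 in edgeR.

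**Figure D5:**
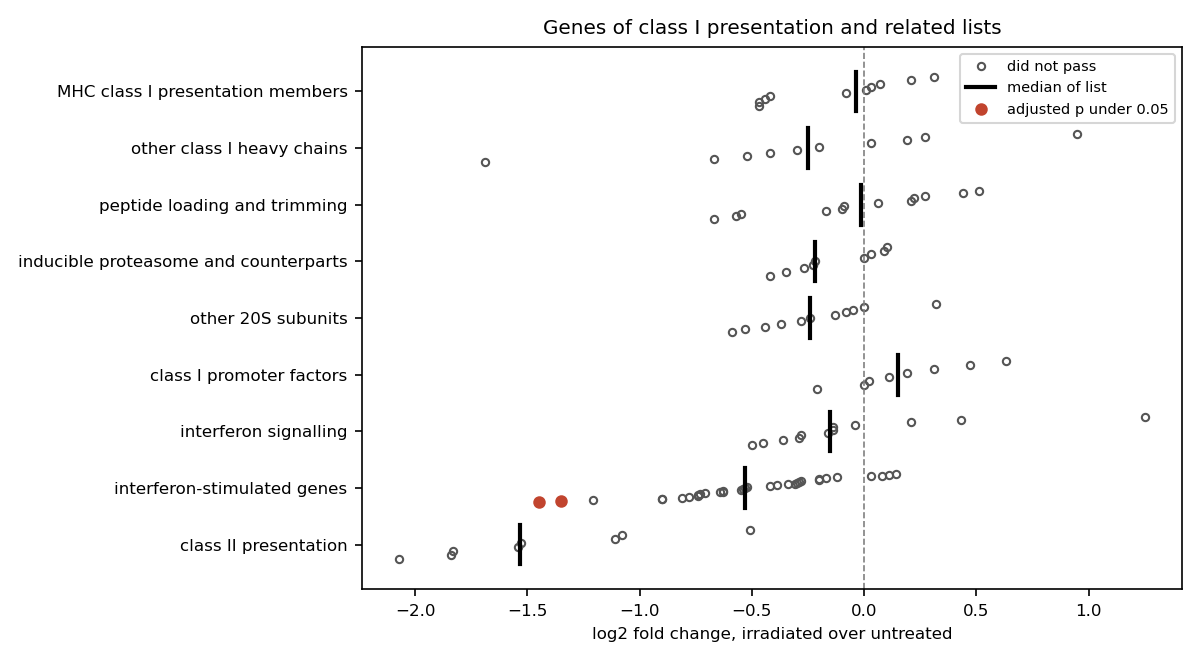
Log2 fold change of irradiated over untreated for each tested gene of the 10 class I presentation genes and of 8 related lists, with the median of each list as a bar and genes at an adjusted p under 0.05 filled in red. The median is -0.04 for the 10 genes, -0.53 for the interferon-stimulated genes, of which 2 are filled, and -1.53 for class II presentation.

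The genes whose log2 CPM followed the mean of the 10 genes most closely over the 9 libraries were Fam89a, Rnpep, 2200002D01Rik, Sh3tc2, Ncf4, Naxe, Hopx and Trim62, with a Pearson r of 0.91 to 0.92. All 8 were highest in untreated replicate 2, and without that library r fell to 0.64 for Fam89a and at most 0.88, for Sh3tc2. None of the 8 passed the test of irradiation, with log2 fold changes from -0.85 ± 0.50 for Ncf4 to -0.16 ± 0.19 for Rnpep.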

How the data were processed

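Bulk MARS-seq libraries of sorted thymic tuft cells, 5 untreated and 4 irradiated, were compared. Tools named in the submitters' processing notes, with no roles, are DESeq2, HTSeq, STAR 2.5.2b, cutadapt and bcl2fastq, and the build is mm10. Collapsing of molecular identifiers is not given in the sources used here. Per the file headers, the table holds raw counts per gene, and each gene has 6 or more counts in its highest library. The authors deposited a normalized signal (counts over 1 size factor per library), log2 values, and p-values of their own comparison.

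Raw counts were fitted in R 4.3.3 with edgeR 4.0.16 (filterByExpr, minimum count 10, leaving 8934 of 13223 genes; TMM; robust quasi-likelihood test; Benjamini-Hochberg adjustment over tested genes, threshold 0.05). SE is the log2 fold change over the square root of F. Ratios had 0.5 counts added for the test and none where printed singly. Alternatives used limma 3.58.1 and DESeq2 1.42.0. The fit was checked on simulated counts with larger changes than those of the 10 genes, so the check does not show its power for changes of their size. Positions are from GENCODE (13008 symbols found). Markers of cell types came from lists, and those named singly followed no set rule. Genes named beyond the 10 and these markers were the 4 of lowest p per list of pathway genes, the proteasome counterparts, and the 8 most correlated. Others, apart from genes named for shared exons, are said to be chosen after their values were seen. Some genes that this rule names are not reported here. The genes, ratios and lists were chosen with earlier results of these data known.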

Additional observations from a re-analysis of the deposited data

Results flagged for a closer look

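In 26 groups of libraries, 1 per gene or ratio and condition, 6 had a library apart from the others by Dixon's test at the 95% level, which chance gives in about 1 of 20 groups. Irradiated replicate 4 was apart in 4 of them, with H2-T23 at 1071 CPM beside 381 to 434 CPM for irradiated replicates 1 to 3, Tap1 at 326 CPM against 203 to 207 CPM, B2m at 1879 CPM against 6602 to 7395 CPM, and the log2 ratio of Psmb10 to Psmb7 at 3.09 against 1.39 to 1.65. Untreated replicate 2 was apart in 2, with B2m at 10553 CPM beside 7005 to 7461 CPM for untreated replicates 1 and 3 to 5, and Tap1 at 296 CPM against 203 to 219 CPM. B2m was thus apart in opposite directions in the 2 groups. The 26 groups were read from the same libraries and were not independent, so the rate of 1 in 20 does not gauge the count of 6.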

How the results depend on the processing

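None of the 10 genes was called in either direction under any of 19 alternatives, while the numbers of all genes called moved. DESeq2 called 180 genes higher and 66 lower, against 109 and 11 in the edgeR fit. Genes called lower were 28 with limma-voom, 24 with the replicate block, 7 after thinning, and 17 without untreated replicate 2 and irradiated replicate 4, an alternative chosen after seeing the data, as was leaving out untreated replicates 1 and 2. Leaving out 1 library gave 50 to 114 genes higher and 2 to 12 lower. The sign of H2-K1, H2-D1, B2m, Psmb8, Psmb9 and Nlrc5 did not change under any alternative. H2-T23 turned to -0.30 with limma-voom, -0.02 with the replicate block and -0.29 without untreated replicate 2 and irradiated replicate 4, and ranged from -0.42 to 0.24 with 1 library left out. Tap1 turned to -0.01 with upper-quartile scaling, -0.06 with limma-voom and -0.05 without those 2 libraries, and ranged from -0.16 to 0.13 with 1 left out. Tapbp turned to -0.03 with upper-quartile scaling and ranged from -0.05 to 0.10, and Tap2 ranged from -0.36 to 0.04, with 1 left out. With 1 library left out, the Psmb8 to Psmb5 log2 ratio differed by -0.59 to -0.42, that of Psmb9 to Psmb6 by -0.55 to -0.41 and that of Psmb10 to Psmb7 by -0.10 to 0.46. With replicates 1 to 4 paired as a replicate block, the first and second differed by -0.52 and -0.55, each with an adjusted p of 0.188 in an exact sign-flip test, which 4 pairs keep from passing. Over genes, deviations from the group mean in same-numbered libraries correlated with an r of 0.07, -0.01, -0.12 and 0.14. Only irradiated replicate 4 correlated best with the untreated library of its own number. The labels do not say whether same-numbered libraries were paired. The cause of these moves was not tested. With 509157 to 978442 counts per library, Nlrc5 in particular was measured with few counts.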
